A study of Mus musculus with 12 samples.

Results

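A set of 10 genes of the oxidative stress response was followed across the embryonic mouse cortex: Nfe2l2, Keap1, Sod1, Sod2, Gpx4, Txnrd1, Gclc, Gclm, Gsr and Nqo1. They were chosen by name for their function, with earlier results of these data known, and all 10 were among the 23513 genes of the files. Single nucleus RNA sequencing (snRNAseq) was performed on cortices of C57BL/6J embryos, collected at embryonic day 14 per the labels, from dams given EtOH in saline or saline alone by daily intraperitoneal injection up to the day before collection. The files held 11 embryos: dams S1 and S2 gave the 5 that received saline, and dams E1 and E2 gave the 6 that received EtOH. A further saline embryo of dam S2 is not analysed here. S1 and E1 were in batch 1 and S2 and E2 in batch 2, so that each treatment was represented by 2 litters, and p-values over embryos measure the spread between embryos that partly share a dam. Both groups received saline as the vehicle, and the labels give neither group a modified allele.

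The 50550 nuclei had been sorted by the study into 25 clusters, which form the classes of radial glial cells (RGCs, 5 clusters), intermediate progenitor cells (IPCs, 2 clusters), projection neurons (PNs, 8 clusters) and interneurons (Ints, 7 clusters), with 3 further clusters. The defining markers followed these names. Hes1 was at 74.1 CPM (UMI counts scaled to 1000000 per sum) in RGCs and 2.97 CPM in PNs, Eomes was at 347 CPM in IPCs, and Gad2 was at 962 CPM in Ints. Each saline embryo gave 44017566 to 83061737 UMIs (unique molecular identifiers, each 1 counted RNA molecule) with a median of 6325 to 9051 UMIs per nucleus, and each EtOH embryo gave 14078316 to 38034349 UMIs with a median of 4072 to 6911. Saline embryo S2-4 lay within the range of the EtOH embryos in this median. Of 50226 barcode sequences, 0.625% were found in more than 1 embryo. RGCs made up 25.7% ± 3.97 (SD, n = 5) of saline nuclei and 20.7% ± 2.48 (SD, n = 6) of EtOH nuclei.

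Nfe2l2 encodes NRF2, a transcription factor that is held in the cytoplasm and marked for degradation by KEAP1 until oxidants or electrophiles modify KEAP1. NRF2 then enters the nucleus, pairs with small MAF proteins and binds the antioxidant response element in the promoters of genes that make and recycle glutathione and thioredoxin. Sod1 and Sod2 are the superoxide dismutases of the cytoplasm and the mitochondrion, and Gpx4 removes lipid peroxides with glutathione. Gclc and Gclm are the catalytic and modifier subunits of the enzyme that limits glutathione synthesis, Gsr reduces oxidised glutathione, Txnrd1 reduces thioredoxin in the cytoplasm, and Nqo1 reduces quinones.

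Because NRF2 acts through the antioxidant response element, the RefSeq promoter windows of build GRCm38.p6 were searched for its core, TGACNNNGC, on both strands in the 250 bases before each annotated start. A window was present for 8 of the 10 genes, and 4 of these 8 held a match in at least 1 window, against 11.5% of the 27025 genes with a window. Genes with more windows had more chances of a match, and Gpx4 and Txnrd1 had more than 1. Of all 32851 windows, 10.2% held a match. The capitals mark the stretch that matched TGACNNNGC, including its free positions N, where any base was allowed; where the match lies on the opposite strand, the capitals read as the reverse complement of this core.
Nfe2l2, chr2:75704885-75704913, minus strand, match 240 bases before the start: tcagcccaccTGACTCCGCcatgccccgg
Gclm, chr3:122245413-122245441, plus strand, opposite-strand match 134 bases before the start: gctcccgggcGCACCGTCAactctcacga
Txnrd1, chr10:82859104-82859132, plus strand, a second start, opposite-strand match 92 bases before it: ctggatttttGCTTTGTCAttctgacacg
Sod1, chr16:90220696-90220724, plus strand, opposite-strand match 56 bases before the start: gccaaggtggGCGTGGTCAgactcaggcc
No match was found in the windows of Nqo1, Keap1, Gpx4 and Sod2, which says only that these letters are not in these windows.

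In the GENCODE M21 annotation of GRCm38, the 10 genes lie on chromosomes 2 (Nfe2l2, 75675513 to 75704641), 3 (Gclm, 122245557 to 122270732), 8 (Gsr, 33652523 to 33698163, and Nqo1, 107388225 to 107403206), 9 (Keap1, 21229730 to 21239361, and Gclc, 77754535 to 77794485), 10 (Gpx4, 80047166 to 80056439, and Txnrd1, 82833951 to 82897712), 16 (Sod1, 90220754 to 90226329) and 17 (Sod2, 13006846 to 13040063). Sod1 overlaps Scaf4, and Keap1, Gclm and Txnrd1 overlap noncoding genes, on the opposite strand. The study ran Cell Ranger at its default settings, which count reads in the sense of a gene, and its version is not given in the sources used here. Txnrd1 also overlaps Eid3, and Gclm, Nfe2l2 and Gsr a pseudogene or small RNAs, on the same strand, where reads could be shared.

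Levels across clusters are described without a test, because the clusters were made from the same nuclei. They are means of CPM over the embryos with at least 10 nuclei in the cluster.

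Nfe2l2, the transcription factor itself, was highest in the RGC clusters. Its level was 39.9 ± 5.65 CPM (SD, n = 11) in Cluster 12, the non-mitotic RGCs, 37.5 ± 5.03 in Cluster 2 and 36.8 ± 10.7 (n = 10) in Cluster 21. It was 29.6 ± 5.07 in Cluster 3 and 23.9 ± 8.76 (n = 9) in Cluster 20. The next clusters in order were the IPCs, at 18.8 ± 4.03 in Cluster 6 and 17.7 ± 5.56 in Cluster 17, then the late interneuron precursors of Cluster 10 at 15.4 ± 3.56 and the Reln+ Layer I cells of Cluster 14 at 12.4 ± 4.30. The 16 remaining clusters were at 5.12 CPM or below. The step from Cluster 14 down to Cluster 13 was larger than its SD within embryos, at 7.25 ± 5.08 CPM, and was seen in 10 of 11 embryos. Between the RGC clusters no neighbours in the order differed by more than that SD. Summed by class, Nfe2l2 was 34.8 CPM in RGCs, 18.5 in IPCs, 6.16 in Ints and 3.05 in PNs, and RGCs were above PNs in 11 of 11 embryos, by 8.06-fold to 17.6-fold. The size of this fold rests on the low level in PNs, at 16 to 82 Nfe2l2 UMIs per embryo. The share of PN nuclei with an Nfe2l2 UMI is read as background below.

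Gsr, which returns oxidised glutathione to its reduced form, had the pattern closest to that of Nfe2l2 among the other 9 genes (Pearson r of log2 levels = 0.857 over the 25 clusters, a description in which all clusters share the same 11 libraries). It reached 66.1 ± 9.12 CPM in Cluster 12 and 59.3 ± 8.88 in Cluster 2, a step of 6.84 ± 5.69 CPM within embryos that was seen in 10 of 11. It was 48.7 in Cluster 3, 39.9 in Cluster 20 and 32.02 in Cluster 21. Mitotic IPCs (Cluster 17) held 31.0 ± 9.003 CPM, and non-mitotic IPCs (Cluster 6) held 14.3 ± 2.33 CPM. In the clusters of PNs the levels were 9.44 to 17.1 CPM. By class, Gsr was 54.7 CPM in RGCs and 11.2 CPM in PNs, and was higher in RGCs in 11 of 11 embryos.

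Sod1 and Gclc were also higher in RGCs than in PNs in all 11 embryos, with a smaller difference. Sod1 was 15.1 CPM in RGCs and 8.69 CPM in PNs, a ratio of 1.74. Its 5 highest clusters were the 5 RGC clusters, at 14.1 to 16.2 CPM, and no neighbours in the order of the 25 clusters differed by more than their SD. Gclc was 55.2 CPM in RGCs and 35.3 CPM in PNs, a ratio of 1.57. Of the 5 RGC clusters, 4 were its highest, at 53.7 to 60.2 CPM, whereas Cluster 21, the cortical hem RGCs, was at 33.6 ± 9.47 CPM.

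**Figure D1:**
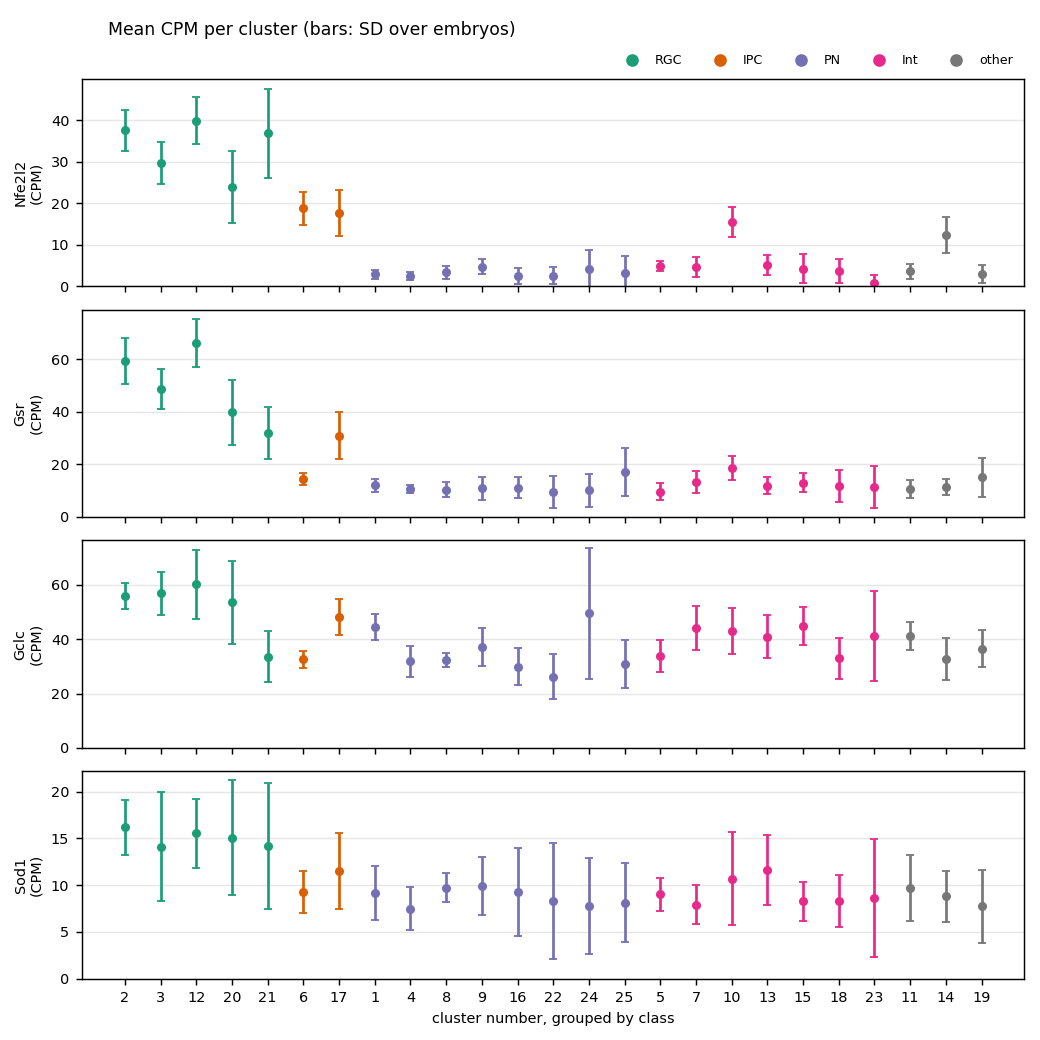
Mean CPM of Nfe2l2, Gsr, Gclc and Sod1 in each of the 25 clusters, on a linear axis from 0, with bars for the SD over embryos (cut off at 0) and colours for the cell class. The RGC clusters hold the highest values of Nfe2l2, from 23.9 to 39.9 CPM, and 8 PN clusters lie at 2.41 to 4.74 CPM.

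Gclm, the partner of Gclc, was lower in RGCs than in PNs in 11 of 11 embryos, at 25.5 and 30.2 CPM, and lower still in IPCs, at 20.5 CPM. Its highest cluster was Cluster 14, at 38.1 ± 15.5 CPM, and its lowest was Cluster 6, at 19.5 ± 2.35 CPM. The r between the log2 levels of Gclc and Gclm over the 25 clusters was -0.35.

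Sod2, the mitochondrial dismutase, was lower in RGCs than in Ints in all 11 embryos, at 10.0 and 12.7 CPM. Its highest levels, 18.7 ± 11.4 CPM (n = 7) in Cluster 25 and 18.3 ± 13.6 CPM (n = 10) in Cluster 24, had wide SDs, and no neighbours in its order of 25 clusters differed by more than their SD within embryos. Gpx4 was higher in RGCs (8.58 CPM) than in Ints (5.96 CPM) in 11 of 11 embryos and was 9.68 CPM in IPCs.

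Txnrd1 was highest in Cluster 10, the late interneuron precursors, at 76.7 ± 9.45 CPM, and in Cluster 1, a PN cluster that the study named callosal, at 72.9 ± 4.52 CPM. The lowest level was 34.0 ± 5.54 CPM in Cluster 14, where Gclm was highest. Keap1, the negative regulator of NRF2, varied least of the 10 genes: its highest cluster mean was 20.5 CPM (Cluster 13) and its lowest 12.1 CPM (Cluster 23), a ratio of 1.69 against 50.2 for Nfe2l2. The ratio of Nfe2l2 rests on its low level in Cluster 23, 0.794 CPM. Nqo1 was detected with 311 UMIs in all. Its level was 3.42 ± 2.40 CPM (n = 9) in Cluster 20 and 2.25 ± 0.674 in Cluster 3, and it was higher in RGCs (1.54 CPM) than in PNs (0.507 CPM) in all 11 embryos.

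**Figure D2:**
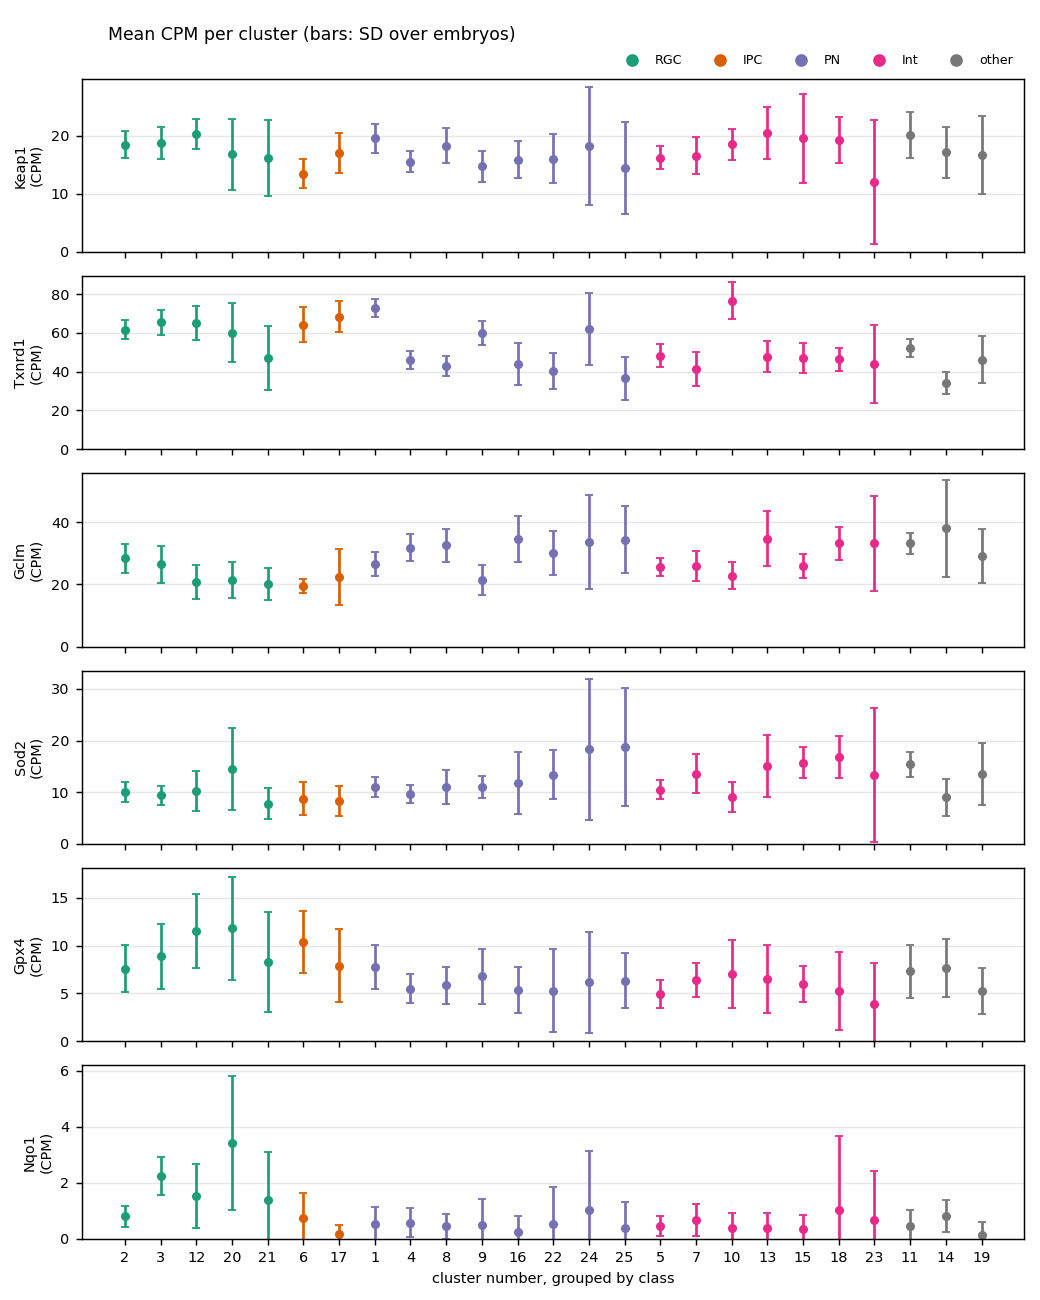
Mean CPM of Keap1, Txnrd1, Gclm, Sod2, Gpx4 and Nqo1 in each of the 25 clusters, on linear axes from 0, with bars for the SD over embryos (cut off at 0) and colours for the cell class. Keap1 stays between 12.1 and 20.5 CPM, and Txnrd1 ranges from 34.0 to 76.7 CPM.

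Over the 8993 genes with a mean of at least 10 CPM, the genes with the most similar pattern to Nfe2l2 over the 25 clusters were Mphosph10 (r = 0.960), Urgcp (0.955) and Ephb4 (0.954). For Gsr they were D030047H15Rik (0.967), Ttyh1 (0.964) and Pms1 (0.952), and for Sod1 they were Daam2 (0.954), Mtx1 (0.935) and D030047H15Rik (0.925). For Keap1 the highest r was 0.735, with Gm10550.

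The share of nuclei with a UMI depends on depth, so each nucleus was thinned to 2000 UMIs, leaving out 177 of 30349 saline nuclei and 210 of 20201 EtOH nuclei below that depth. At this depth 7.74% of Cluster 12 nuclei held an Nfe2l2 UMI and 0.476% of Cluster 4 nuclei did. For comparison, 27 marker genes of meningeal fibroblasts, pericytes, microglia, endothelium, oligodendrocyte precursors and red cells were found at the same depth in 0.0147% to 2.93% of PN nuclei (median 0.273%) and 0.0120% to 3.79% of RGC nuclei (median 0.607%). The highest were Hbb-bs, a red cell globin, in PNs and P2ry12, a microglial receptor, in RGCs. In PNs, 4 of the 10 genes (Keap1, Txnrd1, Gclc and Gclm) were above the highest of these shares in both treatment groups, and the other 6 were at or below it and are read as background by this measure. In RGCs, 5 of the 10 (Nfe2l2, Txnrd1, Gclc, Gclm and Gsr) were above it in both groups, whereas Sod1, Sod2, Gpx4 and Nqo1 were at or below it and Keap1 lay on either side. The highest Nqo1 share, 0.845% in Cluster 20, was also below it. P2ry12 was at 0.881% in PNs, so its share differed between the classes. A share below that of P2ry12 therefore does not show that a gene is not expressed in RGCs. Hbb-bs, which set the limit in PNs, varied from 2.32 to 31.0 CPM between saline embryos. A share below that of Hbb-bs likewise does not show that a gene is not expressed in PNs. Without thinning the share was 16.2% for Nfe2l2 in Cluster 12.

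EtOH was compared with saline on UMIs summed per embryo, with edgeR's quasi-likelihood test and Benjamini-Hochberg adjustment over all genes tested. A gene was called at an adjusted p below 0.05 with an EtOH level above 125% or below 80% of the saline level. In whole embryos, 0 of the 10 genes were called, beside 12.1% of all 18138 genes. At an unadjusted p below 0.05 there were 2 of the 10, beside 38.1% of all genes. DESeq2 called 1, Sod1, beside 14.9% of all genes, and edgeR with DESeq2's size factors also called Sod1 alone, beside 12.4%. Without saline embryo S2-4 there were 2 calls, Sod1 and Gpx4, beside 23% of all genes in the same fit.

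Sod1 was 10.6, 10.5, 12.3, 14.4 and 9.44 CPM in saline embryos S1-1, S1-2, S2-1, S2-2 and S2-4, and 6.75 to 10.4 CPM, with a median of 9.73, in the 6 EtOH embryos. The groups overlapped through S2-4. The fitted log2 fold change was -0.36 ± 0.12 (SE), with an adjusted p of 0.0531 in edgeR and 0.0228 in DESeq2. With each embryo left out in turn, it ran from -0.43, without S2-4 (edgeR adjusted p = 0.00735), to -0.28.

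Gpx4 was 4.67, 4.89, 5.74, 7.54 and 7.77 CPM in the saline embryos in the same order, and 7.16 to 8.36 CPM, with a median of 7.67, in the EtOH embryos. The 2 highest saline embryos, S2-2 and S2-4, lay within the EtOH range. The log2 fold change was 0.28 ± 0.11 (SE), with an edgeR adjusted p of 0.0794. With each embryo left out in turn, it ran from 0.22 to 0.36, the latter without S2-4 (edgeR adjusted p = 0.0159).

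Nfe2l2 was 9.68, 11.2, 12.9, 17.2 and 13.3 CPM in the saline embryos and 9.32 to 13.4 CPM, with a median of 11.6, in the EtOH embryos. The log2 fold change was -0.23 ± 0.11 (SE), with an edgeR adjusted p of 0.154, and it was -0.12 without S2-2, the highest saline embryo. RGCs, where Nfe2l2 was highest, were a smaller share of the EtOH nuclei. Fixed cluster weights were also used. Each cluster was weighted in every embryo by its share of the UMIs pooled over all embryos, most of them from saline embryos. With these weights, mean Nfe2l2 was 11.8 ± 1.12 CPM in saline and 12.6 ± 0.610 CPM in EtOH embryos. An exact two-sided permutation test of the difference over embryos gave p = 0.175. Sums over whole embryos hold both the share of RGCs and the level within RGCs, and the part of each was not tested. Within RGCs, the log2 fold change of Nfe2l2 was 0.03 ± 0.08 (SE).

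Gsr was 19.1, 18.7, 21.3, 30.1 and 21.99 CPM in saline and 17.9 to 22.7 CPM in EtOH embryos, with a log2 fold change of -0.16 ± 0.09 (SE), which was -0.04 without S2-2. With the fixed cluster weights, Gsr was 20.8 ± 2.32 CPM in saline and 21.7 ± 0.878 CPM in EtOH embryos (exact two-sided permutation p = 0.400). Gclm was 26.4, 25.4, 24.8, 28.9 and 26.9 CPM in saline and 28.1 to 33.3 CPM in EtOH embryos. Only S2-2 among the saline embryos reached the EtOH range, yet the log2 fold change after TMM scaling was 0.07 ± 0.06 (SE). The remaining log2 fold changes were 0.23 ± 0.24 (SE) for Nqo1, 0.09 ± 0.09 for Sod2, -0.04 ± 0.04 for Gclc, -0.05 ± 0.05 for Txnrd1 and -0.06 ± 0.06 for Keap1. With each embryo left out in turn, they ran from 0.12 to 0.35 for Nqo1, from 0.05 to 0.16 for Sod2, from -0.055 to -0.028 for Gclc, from -0.075 to -0.031 for Txnrd1 and from -0.081 to -0.024 for Keap1. For Gclc, Txnrd1 and Keap1, the fold changes turned above 0 when counts were scaled by library totals alone, a scaling that placed the median gene at 0.08 in place of 0.01.

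With the fixed cluster weights, 3 of the 10 genes had an unadjusted exact permutation p below 0.05, and all of these were higher in EtOH embryos. Sod2 was 10.6 ± 1.11 CPM in saline and 11.9 ± 0.727 CPM in EtOH embryos (exact permutation p = 0.0411, and 0.0429 with embryos permuted within batches). Gpx4 was 6.18 ± 1.47 and 7.71 ± 0.346 CPM (exact permutation p = 0.0433, and 0.0571 within batches). Gclc was 40.4 ± 1.12 and 42.2 ± 1.29 CPM (exact permutation p = 0.0433, and 0.0905 within batches), although its fold change in the edgeR fit was below 0. For the other genes this p was between 0.0779, for Sod1, and 0.955, for Keap1. These p-values were not adjusted for the 10 tests, and this weighting was added after the data were seen. The test was run on these 10 genes alone, so no share of all genes stands beside the count of 3. It used CPM scaled by totals alone, the scaling that placed the median gene at 0.08 in the edgeR fit. The log2 ratio of Gclc, 0.0636, was below that. At the cluster shares each embryo had, the same test of mean CPM gave p = 0.0173 for Gclm, 0.0325 for Gpx4, 0.0455 for Sod1, 0.0779 for Sod2 and 0.457 for Gclc (exact permutation, unadjusted). Neither test was run on all genes. In the edgeR fit of whole embryos, 38.1% of all genes had an unadjusted p below 0.05.

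**Figure D3:**
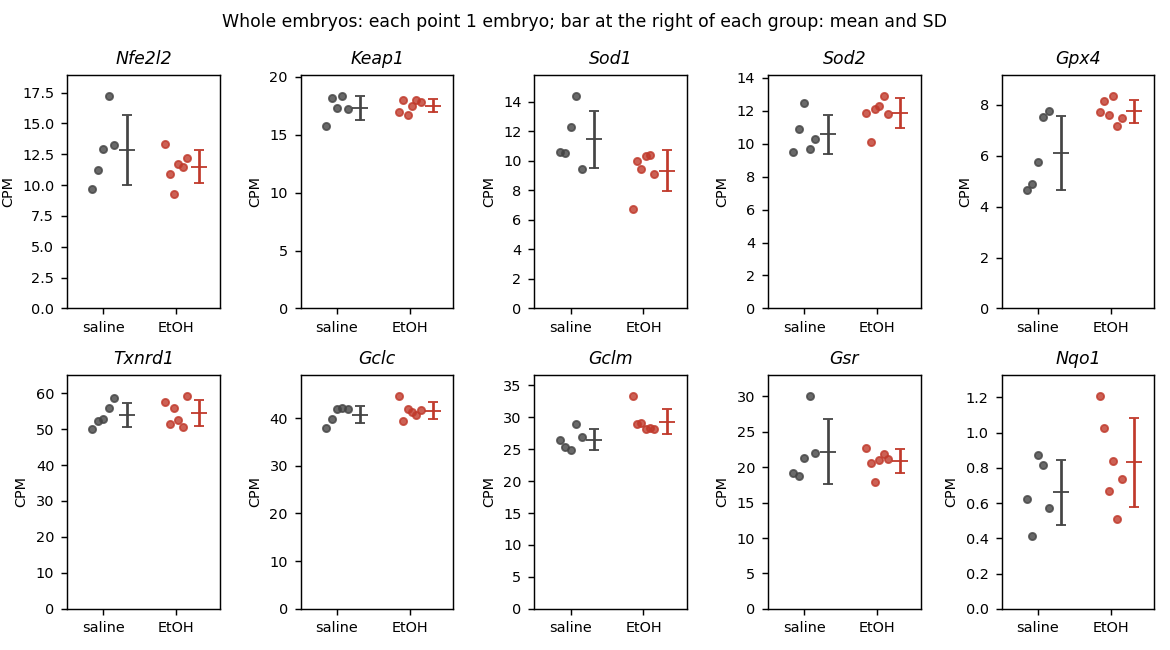
CPM of the 10 genes in whole embryos, with 1 point per embryo on linear axes from 0, and the mean and SD of each group drawn to its right. EtOH embryos hold Gpx4 at 7.16 to 8.36 CPM, and 3 of the 5 saline embryos lie below that range.

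In the cell classes, 0 of 37 tests of the 10 genes were called, beside 4.32% of all gene and class tests. By class, the calls among all genes were 3.79% in RGCs, 1.52% in IPCs, 6.53% in PNs and 4.83% in Ints. At an unadjusted p below 0.05 there were 2 of 37, both in RGCs, beside 29.8% of all genes in RGCs, 23.7% in IPCs, 32.8% in PNs and 28.3% in Ints. DESeq2 called 0 of the class tests, beside 8.85% of those of all genes. Gpx4 was 4.84, 5.65, 6.91, 7.40 and 10.9 CPM in the RGCs of the saline embryos and 8.46 to 11.4 CPM in those of the EtOH embryos, a log2 fold change of 0.39 ± 0.18 (SE) with an edgeR adjusted p of 0.162. Sod1 in RGCs had a log2 fold change of -0.36 ± 0.13 (SE) with an edgeR adjusted p of 0.0917. Without S2-4, which was the highest saline embryo for Gpx4 and the lowest for Sod1, both were called in RGCs, at 0.56 and -0.46, with edgeR adjusted p-values of 0.0116 and 0.00816, beside 18.4% of all genes called in that fit. In PNs, Nfe2l2 had a log2 fold change of -0.38 ± 0.19 (SE) and an edgeR adjusted p of 0.174, and without S2-4 it was called at -0.49 (adjusted p = 0.0384), beside 20.9% of all genes. The share of PN nuclei with an Nfe2l2 UMI was below the highest marker of other cells and is read as background by that measure.

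**Figure D4:**
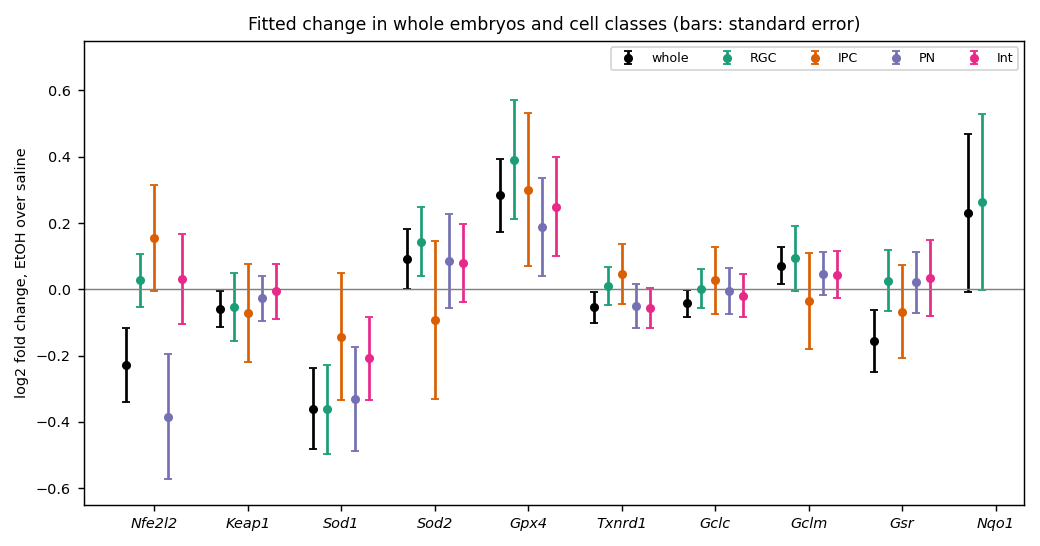
Fitted log2 fold change of EtOH over saline for the 10 genes in whole embryos and in 4 cell classes, with bars for the standard error; a class in which the gene was not tested is absent. Sod1 lies below 0 and Gpx4 above 0 at all 5 levels, and neither was called.

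In the 25 clusters, 161 tests of the 10 genes were possible and 0 were called, beside 0.792% of all gene and cluster tests. At an unadjusted p below 0.05 there were 5, beside 17.4% of all gene and cluster tests, and DESeq2 called 0, beside 2.6% of those tests, giving no adjusted p for Sod1 in Cluster 10. The 5 were Gpx4 in Cluster 2 (log2 fold change 0.58 ± 0.22, SE) and Cluster 11 (0.82 ± 0.29), Sod1 in Cluster 4 (-0.46 ± 0.21) and Cluster 10 (-0.82 ± 0.32), and Gclm in Cluster 10 (0.38 ± 0.16). Gpx4 was above 0 in 9 of the 10 clusters where it was tested, Sod2 in 13 of 16 and Nfe2l2 in 8 of 10, and Sod1 was below 0 in 12 of 15. Within a cluster, 48.8% (Cluster 11) to 52.6% (Cluster 15) of all genes tested were above 0. How often a gene keeps its direction across clusters was not counted over all genes. In the clusters without a test, Gpx4, Sod2, Nfe2l2 and Sod1 did not pass the expression filter. In most of the 10 clusters where Nfe2l2 was tested, its direction was thus opposite to that in whole embryos. No PN cluster was among these 10. In PNs as a class, where its share is read as background, its log2 fold change was -0.38. Of the other genes tested, Gclc was above 0 in 16 of 24 clusters, Gsr in 12 of 20, Gclm in 13 of 22, Txnrd1 in 13 of 25 and Keap1 in 9 of 19. Clusters of the same embryos are not independent. Without S2-4, 3 cluster tests were called, Gpx4 in Cluster 2 (0.71) and Cluster 11 (1.099) and Sod1 in Cluster 3 (-0.72), beside 8.78% of all gene and cluster tests in the same fit.

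The response of a gene in RGCs was set against its response in PNs by an exact two-sided permutation test of log2 CPM in RGCs minus log2 CPM in PNs over embryos. At an adjusted p below 0.05 there were 0 of the 10 genes and 0 of all genes tested. The smallest p possible was 0.00216, so a gene could pass the adjustment only if many other genes had a p as small. Nfe2l2 had the smallest unadjusted p, with a response 0.35 higher in RGCs than in PNs (exact permutation p = 0.0390, adjusted p = 0.541), beside 8.76% of all 23128 genes at an unadjusted p below 0.05. Leaving out 1 embryo raised this exact permutation p above 0.05 in 9 of 11 cases, to between 0.0556 and 0.0905, and it was 0.00476 without S2-4. In PNs, the share of nuclei with an Nfe2l2 UMI was read as background above.

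The share of nuclei with a UMI was also compared, by exact two-sided permutation over embryos, with the same limit on the adjusted p. Thinned to 2000 UMIs in whole embryos, 0 of the 10 genes had an adjusted or unadjusted p below 0.05, beside 0 of all genes at an adjusted p and 20.8% at an unadjusted p below 0.05. Sod1 UMIs were found in 2.33% ± 0.524 (SD, n = 5) of saline and 1.86% ± 0.403 (SD, n = 6) of EtOH nuclei (exact permutation p = 0.123). Without S2-2 the difference in the Sod1 share went from -0.469 to -0.251 percentage points. In the classes, no share of the 10 genes or of any other gene had an adjusted p below 0.05. Of the 40 shares of the 10 genes, 2 had an unadjusted one, beside 13.1% of all genes in RGCs, 9.5% in IPCs, 14.5% in PNs and 11.5% in Ints. These were Nfe2l2 in PNs, at 0.680% in saline and 0.386% in EtOH embryos (exact permutation p = 0.0130, adjusted p = 0.239), and Sod1 in IPCs, at 2.26% and 1.45% (exact permutation p = 0.0173, adjusted p = 0.391). Thinned to 1000 UMIs, the exact permutation p was 0.452 for Nfe2l2 in PNs (0.332% and 0.264%) and 0.723 for Sod1 in IPCs (1.11% and 0.942%). At that depth, 4 of the 50 shares of the 10 genes, in whole embryos and classes, had an unadjusted p below 0.05 and 0 an adjusted one, beside 16.7% of all genes at an unadjusted p in whole embryos, 9.96% in RGCs, 7.65% in IPCs, 11.1% in PNs and 9% in Ints. These were Nqo1 in whole embryos, at 0.0577% in saline and 0.127% in EtOH embryos (exact permutation p = 0.00649, adjusted p = 0.182), and in PNs (0.0295% and 0.0985%, exact permutation p = 0.0476), Gsr in IPCs (2.58% and 1.56%, exact permutation p = 0.00866) and Gclm in Ints (2.34% and 3.07%, exact permutation p = 0.0238). At 2000 UMIs the Nqo1 shares lay at or below the highest of the other cell types' markers in PNs and RGCs, and they are read as background by that measure. The Nfe2l2 shares in PNs lay below that marker too and are read in the same way. Without thinning, every one of the 10 whole-embryo shares was lower in EtOH embryos. The median UMIs per nucleus of each EtOH embryo were below those of every saline embryo but S2-4. Nfe2l2 (8.79% against 6.18%) and Gsr (15.1% against 11.3%) were then below an adjusted p of 0.05 in the exact permutation test, beside 13.8% of all genes. At an unadjusted p below 0.05 there were 7 of the 10, beside 40.5% of all genes.

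**Figure D5:**
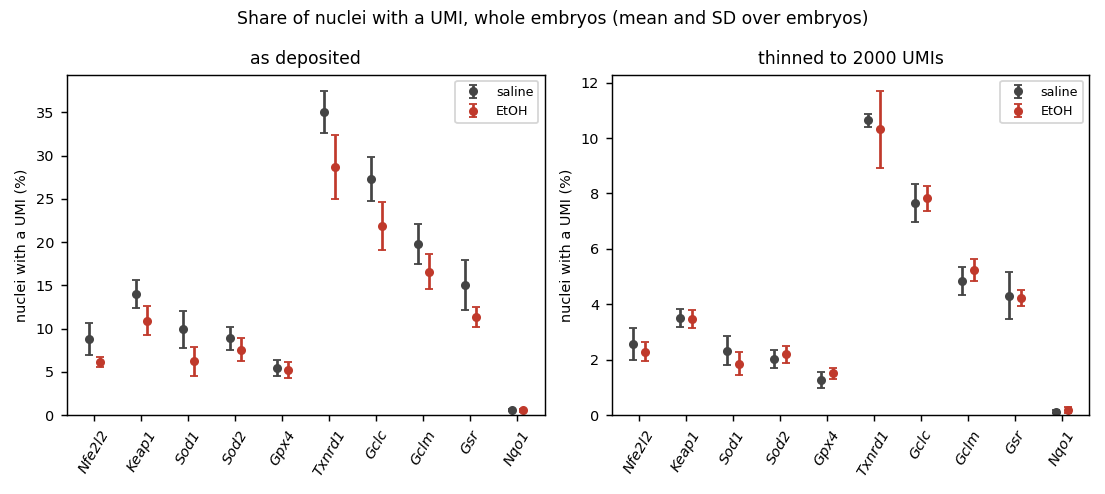
Share of nuclei with a UMI of each gene in whole embryos, as deposited and after thinning to 2000 UMIs per nucleus, with points for the mean and bars for the SD over 5 saline and 6 EtOH embryos. As deposited all 10 means are lower in EtOH embryos, and after thinning 5 of 10 are, with Sod1 at 2.33% in saline and 1.86% in EtOH embryos.

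The wider pathway was followed in 7 lists that do not contain the 10 genes. Lists are described by counts, and the median log2 fold change over all genes was 0.01 in whole embryos. In all, 10 of the 77 listed genes tested (13%) were called in whole embryos, beside 12.1% of all genes, so the share called was near the background. With the dam as a random block in limma voom, 3 of these 10 calls were lost, and 0 were lost with DESeq2, with its size factors or with a stricter filter. There were 9 lost with counts summed per dam, 6 with thinned nuclei, 4 with total counts only, 3 without a filter and 1 with batch as a covariate. All 10 were lost with the replicate number as a block, although that number was not taken to pair embryos. Leaving out 1 embryo lost 4 to 8 of them, except without S2-4, where 0 were lost. Of the NRF2 partners and regulators, 2 of 12 tested rose and 0 fell, beside 12.1% of all genes called, with a median of -0.11. These were Sqstm1, which encodes the KEAP1-binding autophagy receptor p62 (0.40 ± 0.08, SE, edgeR adjusted p = 0.0154), and Nfe2l3, a relative of Nfe2l2 (0.65 ± 0.21, adjusted p = 0.0469). Both also rose in Ints, where 4.83% of all genes were called. Mafg (-0.26), Cul3 (-0.22) and Bach1 (-0.14) did not pass the call.

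Of the superoxide and peroxide removing genes, 1 of 11 tested rose, Prdx5, a peroxiredoxin (0.59 ± 0.15, SE, edgeR adjusted p = 0.0215), beside 12.1% of all genes called, with a list median of -0.02. Prdx2, another peroxiredoxin, missed the fold limit in whole embryos (0.31) but rose in RGCs (0.44) and Ints (0.33), and Prdx4 rose in PNs (0.41), beside 3.79%, 4.83% and 6.53% of all genes called in RGCs, Ints and PNs. Gpx7 (0.42) and Gpx8 (-0.34) were not called. Of the thioredoxin, glutaredoxin and methionine sulfoxide repair genes, 1 of 17 rose and 1 fell, beside the same 12.1%, with a median of 0.10. Msrb1, a methionine sulfoxide reductase, rose by 0.52 and Sesn2, a sestrin, fell by 0.56, whereas Sesn3 (-0.25), Glrx3 (-0.15) and Msrb3 (-0.53) were not called.

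Of the genes of glutathione synthesis, transport and use, 2 of 15 rose and 1 fell, beside 12.1% of all genes called, with a median of 0.11. Hagh, a glyoxalase that releases glutathione, rose in whole embryos (0.49 ± 0.10, SE, edgeR adjusted p = 0.0151) and in RGCs (0.47), PNs (0.52) and Ints (0.53), classes in which 3.79%, 6.53% and 4.83% of all genes were called. It was 7.64 to 11.7 CPM in saline and 11.5 to 14.1 CPM in EtOH embryos. Mgst3, a microsomal glutathione transferase, rose by 0.36. Slc7a11, the cystine importer that feeds glutathione synthesis, fell by 0.72 in whole embryos (edgeR adjusted p = 0.0279) and by 0.83 in PNs; it was 14.9 CPM in RGCs and 4.42 CPM in PNs. Ggt7 (0.28) and Slc3a2, the Slc7a11 partner (0.27), were not called.

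Of the NRF2-inducible detoxification, heme and iron genes, 2 of 10 tested rose and 0 fell, beside 12.1% of all genes called, with a median of 0.03. These were Ftl1, the ferritin light chain (0.49 ± 0.15, SE, edgeR adjusted p = 0.0396), and Aifm2, a suppressor of lipid peroxidation (0.41 ± 0.13, adjusted p = 0.0441), which also rose in PNs (0.85, beside 6.53% of all genes called). Fth1 (0.37), Cbr1 (-0.21) and Slc40a1 (-0.55) were not called. Of the 7 NADPH supply genes and 5 selenoprotein synthesis genes tested, 0 were called by edgeR; at an unadjusted p below 0.05 there were 0 of 7 and 2 of 5, beside 38.1% of all genes. Me1, malic enzyme (0.14), and Secisbp2, a selenocysteine factor (0.17), had the smallest p of each list.

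Markers of RNA quality and of other cells were also set beside the treatment. Malat1, a nuclear RNA, was 12156 to 15973 CPM in saline and 15123 to 17389 CPM in EtOH embryos (exact two-sided permutation p = 0.0130), and ribosomal protein genes summed to 872 to 1595 and 1391 to 1611 CPM (exact permutation p = 0.0844). The 6 microglial markers summed to 14.97 to 32.7 CPM in saline and 28.0 to 37.2 CPM in EtOH embryos (exact permutation p = 0.00649), and 0 of the 6 were at 0. This sum was mostly P2ry12, at 6.93 to 16.1 CPM in saline and 13.2 to 18.3 CPM in EtOH embryos, and Cx3cr1, at 6.78 to 15.002 and 13.01 to 17.3 CPM, while C1qa was at 0.0792 CPM and C1qb at 0.132 CPM over all embryos. P2ry12 was found in 3.79% of RGC and 0.881% of PN nuclei thinned to 2000 UMIs. The 5 meningeal fibroblast markers summed to 4.78 to 25.4 CPM in saline and 2.46 to 7.03 CPM in EtOH embryos (exact permutation p = 0.0606). For pericytes, endothelium, oligodendrocyte precursors and red cells the exact permutation p was between 0.134 and 0.994. The part of all these markers in the results above was not tested.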

How the data were processed

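Nuclei from frozen cortices were sequenced by the authors with 10x 3' V3.1 chemistry, aligned with Cell Ranger to mm10, filtered in Seurat and clustered after Harmony correction. They deposited raw UMI counts per gene and nucleus for each embryo and cluster; Cell Ranger ran at default settings, its version and so its intron setting not being given in the sources used here. The members and lists were chosen with earlier results of these data known.

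Counts were summed per embryo over whole embryos, classes and clusters (at least 10 nuclei), and 11 embryos were grouped by the treatment label. Levels are CPM of these sums. EtOH was compared with saline with edgeR 4.0.16 (TMM, filterByExpr, robust quasi-likelihood fit, treatment only) in R 4.3.3, with Benjamini-Hochberg adjustment over all genes of a level. DESeq2 1.42.0, limma 3.58.1, other scalings and filters, batch, the replicate block, sums per dam, thinning and leaving out each embryo were alternatives. Fixed cluster weights were added after seeing the data. Shares of nuclei (every gene with a UMI) and the RGC and PN contrast (pseudocount 1 CPM) were tested by exact two-sided permutation over 462 splits, with 0.00216 the smallest p possible. Depth was 14078316 to 83061737 UMIs per embryo. The fits and the permutation test were tested on simulated data. All 10 members were named, with listed genes that were called or among the 5 smallest p of a list in whole embryos, and up to 3 genes most alike over clusters. Doublets were not called again here.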

Additional observations from a re-analysis of the deposited data

Results flagged for a closer look

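Among the 20 sets of whole-embryo values examined (10 genes in 2 groups), 2 held an embryo far from the others of its group, and chance gives about 1 in 20. Both came from EtOH embryo E1-1, which had the fewest UMIs per nucleus, a median of 4072. Its Sod1 level was 6.75 CPM, the lowest of the 6 EtOH embryos, and its Gclm level was 33.3 CPM, the highest.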

How the results depend on the processing

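In whole embryos 1 of the 10 genes, Sod1, was called with DESeq2 size factors and with DESeq2, beside 12.4% and 14.9% of all genes, and leaving out each embryo gave 0 to 2, the 2 beside 23% of all genes. The same leave-outs gave 0 to 3 calls in the classes and 0 to 3 in the clusters, with every call coming from the fits without S2-4, where more of all genes were called too. The cause was not tested. The other planned fits called none of the 10 genes, at any level.

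Some directions turned with the setting, among them those of Nfe2l2 (-0.23) and Gsr (-0.16) in the main fit of whole embryos. With total counts only, the log2 fold change in whole embryos was 0.0137 for Keap1, 0.0172 for Txnrd1 and 0.0303 for Gclc, which was 0.0248 with thinned nuclei. With fixed cluster weights, the log2 ratio of group means was 0.0931 for Nfe2l2, 0.00312 for Keap1, 0.0297 for Txnrd1, 0.0636 for Gclc and 0.0616 for Gsr. In RGCs, Nfe2l2 was -0.0131 without a filter, -0.0464 with thinned nuclei and between -0.0268 and 0.0779 over the leave-outs.

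For the share of nuclei, 2 of the 10 genes passed the adjusted threshold without thinning, and EtOH minus saline in percentage points was then -1.35 for Sod2, -0.250 for Gpx4, -5.46 for Gclc, -3.20 for Gclm and -0.0599 for Nqo1. At 1000 UMIs it was 0.0676 for Txnrd1 and -0.00685 for Gclc. Over the leave-outs it ran from -0.132 to 0.0538 for Keap1, from -0.705 to 0.0616 for Txnrd1 and from -0.232 to 0.290 for Gsr.

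The replicate number as a block called 0 of the 10 genes and 0 of all genes in whole embryos, against 2193 without it; the 10 listed genes called there were lost under the block, 9 of them also with sums per dam. Same-numbered embryos of the 2 treatments correlated in their deviations at -0.26 to 0.18 over 5 pairs, so the numbers were not taken to pair embryos. Over all genes, the leave-outs called 409 to 4129 in whole embryos. Nqo1 rested on 311 UMIs in all embryos.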
